A study of Mus musculus with 185 samples.

Results

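Pleiotrophin (Ptn) and midkine (Mdk) are secreted heparin-binding growth factors that signal through cell-surface proteoglycans and other receptors. The 8 genes described here are these ligands, the 4 syndecans Sdc1, Sdc2, Sdc3 and Sdc4, and the receptors nucleolin (Ncl) and Lrp1. They are 8 of the 17171 genes in a table of single cells from mouse hearts, 33 resident and 152 from infarcts. Ptn and Mdk were chosen by their high level in cells traced with Postn, and the other 6 genes were listed as their receptors. What the Postn-traced cells show for Ptn and Mdk is therefore a description, and nothing is supported with it.

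Ptn and Mdk form a family of their own, small basic proteins rich in cysteine and lysine that bind heparan sulfate and chondroitin sulfate chains in the matrix and on the cell surface. Syndecans are transmembrane proteoglycans whose extracellular part carries those chains and whose short cytoplasmic tail is conserved across the family, and they also act as co-receptors for other growth factors and for integrins. In the heart, midkine and the syndecans have been studied in infarct healing and fibrosis, and pleiotrophin is best known for its roles in neural tissue, blood vessels and bone.

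The study followed fibroblasts into the scar of a myocardial infarct. Cells were taken by Fluidigm C1 capture from hearts of C57BL/6 backcross mice about 5 months old and sequenced one library per cell. Traced cells carried a tamoxifen-inducible Cre (MerCreMer, MCM) and an eGFP reporter at Rosa26, with Cre driven from the Postn locus, where it takes the place of 1 Postn allele, or from the Tcf21 locus. Cells were sorted without the endothelial marker CD31 and the leukocyte marker CD45.

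The labels divide the cells into 9 classes and the table into 4 captures. The capture from uninjured hearts held 12 Postn-negative, 17 Tcf21-traced, 1 Postn-positive and 3 Tcf21-positive Postn-positive resident cells. A legend draws Tcf21-traced cells from Tcf21 MCM/+; R26-eGFP mice, and for uninjured mice of that line the study describes tamoxifen before harvest. The mouse line of the other resident cells is left unclear by the legends. The other captures came from infarcted hearts of tamoxifen-treated mice about a week after left coronary artery ligation. The capture from Postn MCM/+; R26-eGFP mice held 27 Postn-traced, 24 Postn-negative and 6 untraced Postn-positive activated cells, and that from Tcf21 MCM/+; R26-eGFP mice held 44 Tcf21-traced and 19 untraced Postn-positive activated cells. The scar capture held 29 untraced scar cells and 3 untraced Postn-positive cells, and the labels do not state its mouse line. The results and legends of the study describe the resident cells as from uninjured hearts, while a legend also speaks of tissue remote from the infarct for a control. A legend gives 3 mice in each group, but since the source mouse is not labelled for any cell, a class stands for 1 sample, differences carry no test, and every SD is between cells.

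The number of genes above 5 TPM, a share of a cell's transcripts scaled by gene length, stood for the depth of a cell, because TPM values keep no read count. Its median was 2092 in resident Postn-negative cells, 2264 in resident Tcf21-traced cells and 2342 in activated Postn-negative cells. It was 3643 in Postn-traced cells, 3134 in activated Tcf21-traced cells and 3177 in scar cells, where the lowest cell had 141. Activated traced cells thus had more genes above the threshold than resident or Postn-negative cells. Gapdh, a housekeeping enzyme, was listed at 0 in 9 cells, so a 0 in a cell is given as a listed value and not as absence of the transcript.

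The labelled cell type was fibroblast, and 180 cells, all but 5, had at least 3 of 6 fibroblast genes above 5 TPM, with Dcn the most abundant at a mean level of 13.13 log2 (TPM + 1). The endothelial list (5 of 6 genes in the table) reached 3 genes in 0 cells, and the myeloid list in 1 cell. The cardiomyocyte list reached 3 genes in 2 cells, the epicardial list in 1, the Schwann list in 1 and the pericyte list in 5. The smooth muscle list, which shares Acta2 with myofibroblasts, reached 3 of 6 genes in 21 cells, none of them resident. Its median summed level was 257 TPM in Postn-traced cells and 4.34 TPM in activated Postn-negative cells, in which Myh11, Cnn1 and Lmod1 were listed at 0 throughout. Its part in the ligand differences below was not tested. Postn itself was above 5 TPM in 27 of 27 Postn-traced cells and in 3 of 24 activated Postn-negative cells. It was also above 5 TPM in 39 of 44 activated Tcf21-traced cells and 24 of 29 scar cells. Among resident cells, 3 of 12 Postn-negative and 4 of 17 Tcf21-traced cells had it above 5 TPM.

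The ends of the coding sequences of Ptn and Mdk are rich in lysine codons. Each stretch below holds the last 105 coding bases, stop codon included, from the GENCODE vM21 transcript on GRCm38, with the lysine codons AAA and AAG in capitals. In Ptn, on the minus strand of chromosome 6, 12 of the 34 codons before the stop are lysine codons, and in Mdk, on the minus strand of chromosome 2, 9 of 34 are. The ends of the 4 syndecans, printed further on with other codons in capitals, hold 5 to 7 lysine codons in the same length. The longest unbroken run is 5 lysine codons in Ptn, 2 in Mdk and Sdc2, and 3 in Sdc1, Sdc3 and Sdc4. The Ptn stretch lies in 2 exons at chr6:36715707-36741326 and the Mdk stretch in 2 exons at chr2:91930090-91930896. The whole coding sequences have 507 and 423 bases.
Ptn: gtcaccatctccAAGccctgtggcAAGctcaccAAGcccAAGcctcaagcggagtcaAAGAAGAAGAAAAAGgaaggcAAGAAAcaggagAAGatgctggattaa
Mdk: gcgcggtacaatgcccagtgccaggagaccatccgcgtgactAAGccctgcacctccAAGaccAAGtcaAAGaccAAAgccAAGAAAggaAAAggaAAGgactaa

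Ptn was highest in Postn-traced cells and lowest in the Postn-negative cells of the same infarcts. In the 27 Postn-traced cells its level ran from a listed 0 through a median of 10.36 to 13.56 log2 (TPM + 1), and in the 24 activated Postn-negative cells from 0 through a median of 0 to 9.32. The mean levels were 9.79 ± 3.60 and 0.93 ± 2.31 log2 (TPM + 1, SD between cells). The classes overlap, since 2 traced cells are listed at 0 and the highest Postn-negative cell lies within the traced range. The study used 5 TPM in its filter on genes, and the same level was applied here to single cells. Ptn was above it in 25 of 27 Postn-traced cells (92.6%, exact Clopper-Pearson 95% interval 75.7 to 99.1). The count was 4 of 24 in Postn-negative cells (16.7%, 4.74 to 37.4). These intervals cover counting error alone.

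Ptn was among the most abundant transcripts of a Postn-traced cell. Its median rank there was 113 of 17171 genes, and it stood among the top 100 genes in 13 of the 27 cells. It reached that top 100 in 24 of all cells. The highest Ptn levels of all were in 2 scar cells, at 14.60 and 13.85 log2 (TPM + 1), followed by a Postn-traced cell at 13.56.

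The untraced Postn-positive cells of the Postn capture, which the methods describe as eGFP-negative cells with Postn transcript, also carried Ptn. Their 6 levels ran from 0 through a median of 9.13 to 12.44 log2 (TPM + 1), and 5 of 6 were above 5 TPM. The 19 untraced Postn-positive cells of the Tcf21 capture had a Ptn mean of 4.70 ± 4.46 log2, with a median of 4.22, a range of 0 to 10.76 and 11 cells above 5 TPM. The 44 activated Tcf21-traced cells, fibroblasts marked before the injury, had a mean of 3.95 ± 4.27 log2, a median of 3.24 and a range of 0 to 13.53, with 23 cells above 5 TPM. Ptn was thus split within these classes, near 0 in many cells and high in others.

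In scar cells Ptn had a mean of 3.54 ± 5.08 log2 (TPM + 1), a median of 0 and a high of 14.60, and 11 of 29 cells were above 5 TPM. Resident cells expressed it in a minority: 5 of 12 Postn-negative cells (mean 2.43 ± 3.62 log2, median 0, high 10.99) and 6 of 17 Tcf21-traced cells (mean 2.06 ± 3.24 log2, median 0, high 10.42). The lone resident Postn-positive cell had a Ptn level of 5.50 log2, and 1 of the 3 resident Tcf21-positive Postn-positive cells was above 5 TPM. Ordered by mean level over the 8 classes of 6 or more cells, Ptn ran from Postn-traced through untraced Postn-positive (Postn capture, then Tcf21 capture), Tcf21-traced, scar, resident Postn-negative and resident Tcf21-traced to activated Postn-negative cells. Each of the 7 steps between neighbours in that order was smaller than the SD between cells.

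**Figure D1:**
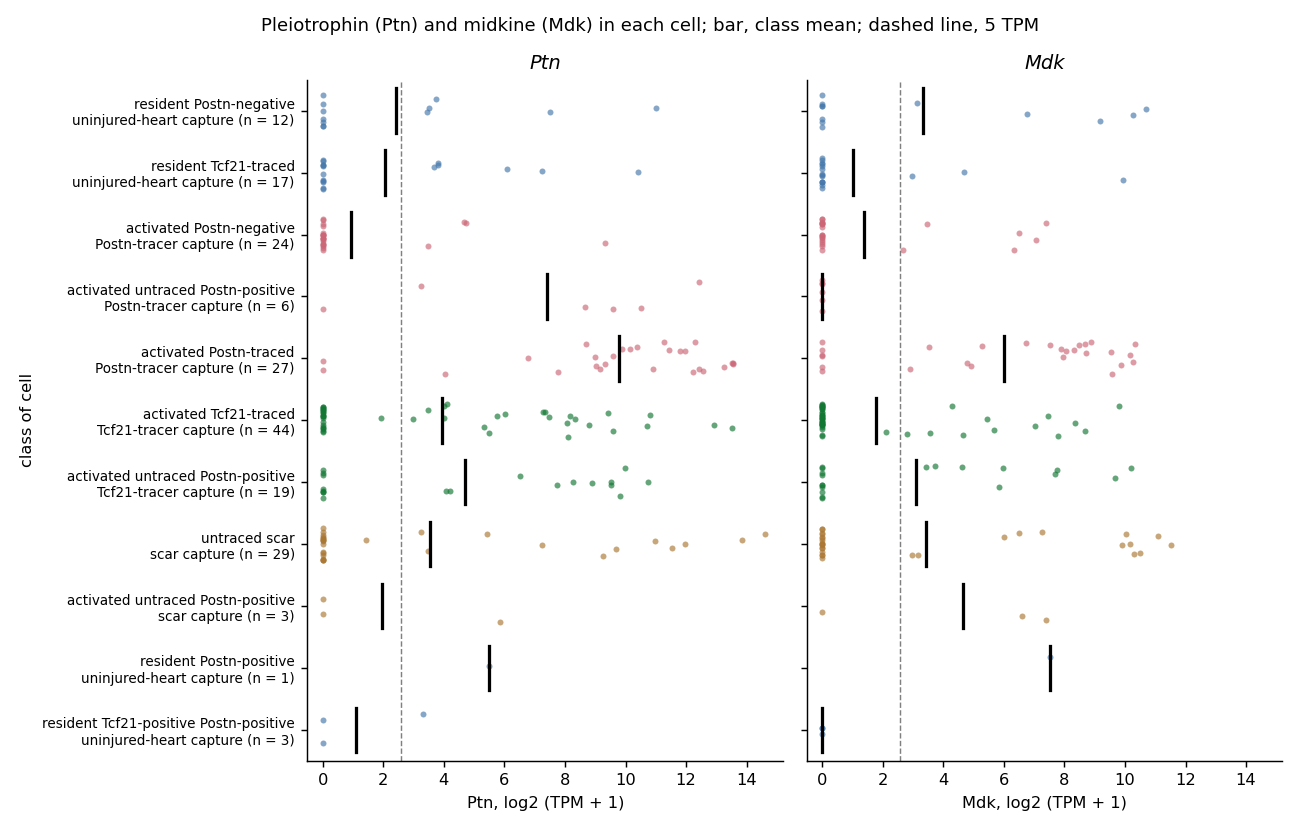
Level of Ptn (left) and Mdk (right) in each cell, in log2 (TPM + 1), by class and capture; each point is a cell, the bar is the class mean and the dashed line is 5 TPM. Postn-traced cells sit to the right in both panels, with class means of 9.79 for Ptn and 6.02 for Mdk, and every class of more than 6 cells has cells at 0.

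Among the 8 classes of 6 or more cells, Mdk was also highest on average in Postn-traced cells, at a lower level than Ptn. Its 27 values there ran from 0 through a median of 7.90 to 10.33 log2 (TPM + 1), with a mean of 6.02 ± 3.81 and 21 cells above 5 TPM (77.8%, interval 57.7 to 91.4). In the 24 activated Postn-negative cells the Mdk mean was 1.39 ± 2.63 log2, the median 0 and the high 7.38, with 6 cells above 5 TPM. Mdk was listed at 0 in all 6 untraced Postn-positive cells of the Postn capture, a share for which the interval reaches up to 45.9%. The pair of ligands thus parted in that small class, where Ptn was present and Mdk was not detected. Its median number of genes above 5 TPM was 2235, against 3643 in Postn-traced and 2342 in activated Postn-negative cells. Of the 6 cells, 1 carried Schwann cell genes. The part of depth in the missing Mdk was not tested.

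In the other classes of 6 or more cells Mdk was seen in a smaller share of cells than in Postn-traced cells. It was above 5 TPM in 12 of 44 activated Tcf21-traced cells (mean 1.76 ± 3.04 log2, median 0, high 9.79) and in 9 of 19 untraced Postn-positive cells of the Tcf21 capture (3.10 ± 3.73 log2, median 0, high 10.19). In scar cells 12 of 29 were above 5 TPM (3.43 ± 4.56 log2, median 0, high 11.52), and the 2 highest Mdk levels of all cells, 11.52 and 11.08 log2, were scar cells. Without 6 scar cells of few genes, in all of which Mdk was listed at 0, the scar mean was 4.32 ± 4.74 log2. Uninjured hearts held Mdk too: 5 of 12 resident Postn-negative cells were above 5 TPM (3.34 ± 4.53 log2, high 10.68) and 3 of 17 resident Tcf21-traced cells (1.03 ± 2.64 log2, high 9.93). Each of the 7 steps between neighbouring class means of Mdk was smaller than the SD between cells.

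Most Postn-traced cells carried both ligands. Ptn and Mdk were above 5 TPM together in 20 of 27 Postn-traced cells (74.1%, interval 53.7 to 88.9), Ptn alone in 5, Mdk alone in 1 and neither in 1. In activated Tcf21-traced cells both were found in 8 of 44 cells (18.2%, 8.19 to 32.7), Ptn alone in 15, Mdk alone in 4 and neither in 17. Activated Postn-negative cells had both in 2 of 24 cells and neither in 16. Over all cells, 47 had both, 46 Ptn alone, 24 Mdk alone and 68 neither.

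**Figure D2:**
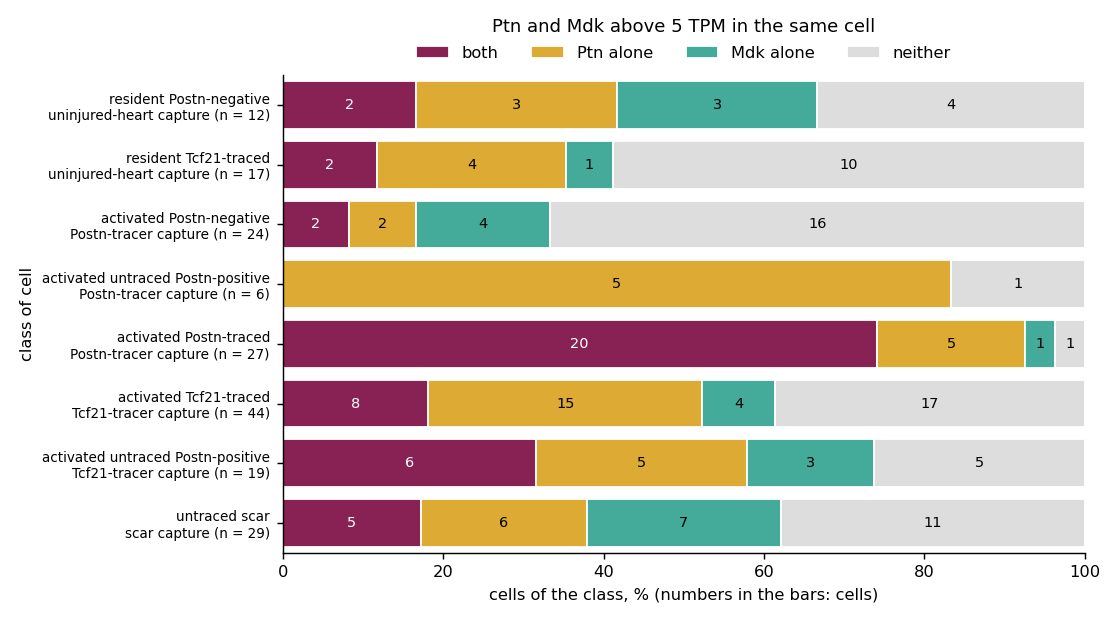
Share of cells of each class with Ptn and Mdk both above 5 TPM, with either alone or with neither, in percent; numbers in the bars are cells. Both ligands were found together in 20 of 27 Postn-traced cells and in 8 of 44 Tcf21-traced cells.

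The Postn-traced and Postn-negative cells of the same capture gave the contrast that chose the ligands. A gene entered a comparison when it was above 5 TPM in at least 20% of the cells of either class, and it was called when the class means differed by more than 1 log2 unit. Ptn was 8.87 log2 units higher in Postn-traced cells, rank 3 of 6379 genes, and Mdk 4.62 units higher, rank 22. Both differences were larger than the SD between cells of 3.03 and 3.28 log2 units. The median gene differed by 0.75 log2 units in the same direction, and relative to it Ptn was 8.12 and Mdk 3.87 units higher. With medians over cells in place of means the Mdk difference was 7.90 log2 units.

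Of the 8 genes, all passed the filter in this contrast and 4 were called higher (Ptn, Mdk, Sdc1 and Sdc3), where 39.4% of all 6379 genes were called higher. None of the 8 was called lower, against 5.55% of all genes, although on medians over cells Sdc2 (-1.27) and Lrp1 (-1.20) passed 1 log2 unit and Sdc4 turned from 0.64 to -0.63. Each cell was also centred on its median gene, meaning the median of its genes above 5 TPM, with genes listed at 0 moved as well. The median difference over all genes was then 1.27 log2 units, wider than the 0.75 without centring. So centred, 6 members and 61.7% of all genes were higher, and 0 members and 2.66% of all genes lower. Nothing is read from those counts, since the contrast chose the ligands. The syndecan calls were small against their spread: Sdc1 was higher by 1.85 log2 units and Sdc3 by 1.02, each within the SD between cells. The Sdc3 difference turned to -0.64 on the log2 of the mean TPM and the Sdc1 difference to 0.62, below the call, and on medians over cells they were 0.76 and 0. Relative to the median gene, Sdc2 stood at -1.28 and Lrp1 at -1.30 log2 units, and centring each cell, which moves all genes by the same amount, leaves such relative values as they are.

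The 6 untraced Postn-positive cells of the same capture were set against the same 24 Postn-negative cells. The contrast that chose the ligands shares that low side, so the place of Ptn and Mdk here is a description too. Ptn was 6.48 log2 units higher in them, rank 2 of 5153 genes and larger than the SD between cells of 3.74. Mdk went the other way with a difference of -1.39 log2 units, within its SD of 1.86; it was -4.40 on the log2 of the mean TPM and 0 on medians, where it was not called. Of the 7 genes that passed, 2 were called higher (Ptn and Sdc3) beside 24.7% of all genes, and 2 were called lower (Mdk and Sdc2) beside 28.2%. The median gene differed by -0.13 log2 units. Among the 6 cells, 1 carried at least 3 Schwann cell genes and had a Ptn level of 10.51 log2, and without it and 2 marked Postn-negative cells the Ptn difference was 5.94 log2 units.

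In the Tcf21 capture, untraced Postn-positive cells and Tcf21-traced cells were compared next. The Ptn difference was 0.75 log2 units and not called, while Mdk (1.33) and Sdc3 (1.47) were called higher in the untraced cells and Sdc4 (-1.14) lower. The Ptn difference was 1.01 log2 units with each cell centred, past the call, and turned to -0.89 on the log2 of the mean TPM. All 8 genes passed, so that 2 were higher beside 11.2% of 6992 genes and 1 lower beside 7.29%. All these differences were within the SD between cells. On medians over cells Mdk was 0 and Sdc4 -0.51, and on the log2 of the mean TPM Sdc3 was 0.92, none of them called. Sdc1, at 0.40 and not called, was 3.81 on medians and -0.96 on the log2 of the mean TPM. Of all calls in this comparison 60.5% were higher, and 84.4% with each cell centred on its median gene, where the Sdc4 difference was -0.88 log2 units and no longer called.

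In uninjured hearts, Tcf21-traced and Postn-negative cells served as a comparison of labels without injury. Ptn differed by -0.37 log2 units and was not called. Mdk was lower in the Tcf21-traced cells by -2.30 log2 units and Lrp1 higher by 1.18, the latter 0.79 without a Postn-negative cell that carried myeloid genes. Of 7 genes that passed, 1 was higher beside 25% of 4547 genes and 1 lower beside 18.7%. On medians the Mdk difference was 0 and on the log2 of the mean TPM the Lrp1 difference 0.56. Sdc4, at -0.58 and not called, was -1.71 on medians and 0.17 on the log2 of the mean TPM. Sdc2, at -0.27 and not called, was -1.04 without the cell that carried myeloid genes. Neither called difference exceeded the SD between cells.

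The next comparisons cross captures, so that class and capture cannot be told apart. Activated Tcf21-traced cells were set against resident Tcf21-traced cells, where infarction and capture change together within 1 tracer. The median numbers of genes above 5 TPM were 3134 and 2264. Of the 8 genes, which all passed, 4 were called higher (Ptn 1.89, Sdc1 2.17, Sdc3 1.29 and Sdc4 2.64 log2 units) beside 41.7% of 6117 genes, and 0 lower beside 6.21%. Mdk, at 0.73, was not called; it was 1.18 log2 units with each cell centred and -0.17 on the log2 of the mean TPM. With each cell centred, 6 members and 60% of all genes were higher, and 0 members and 3.09% of all genes lower. The median gene was 0.81 log2 units higher, and relative to it Sdc4 was 1.83, Sdc1 1.36 and Ptn 1.08 units higher while Sdc2 stood at -1.61. On medians the Sdc1 difference was 0, and on the log2 of the mean TPM the Sdc3 difference was 0.20, so that these calls were lost while those of Ptn and Sdc4 stayed. The share of members called higher is near that of all genes, and no member difference exceeded the SD between cells.

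Activated cells were also set against resident cells among those labelled Postn-negative. These activated cells are the low side of the contrast that chose the ligands, so the place of Ptn and Mdk here is a description too. Ptn was lower by -1.51 and Mdk by -1.94 log2 units in the activated cells, together with Sdc2 at -1.55, while Sdc4 was higher by 1.55. Of 6 genes that passed, 1 was higher beside 29% of 4997 genes and 3 were lower beside 13.6%. Both ligands are among those 3, so nothing is read from that count. With medians over cells both ligand differences were 0, since most cells of each class were listed at 0. All of these differences were within the SD between cells.

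Between the tracers after infarction, Ptn had the lowest difference of all 6748 genes, -5.85 log2 units in Tcf21-traced minus Postn-traced cells, and Mdk the 4th lowest, at -4.25 (-7.90 on medians). Both exceeded the SD between cells of 3.95 and 3.45 log2 units. Of the 8 genes that passed, 0 were called higher beside 7.79% of all genes and 2 lower beside 13.9%, and the 6 receptors were all within 1 log2 unit, although Sdc2 (1.98), Sdc3 (1.37) and Lrp1 (1.12) passed it on medians. The Postn-traced cells that chose the ligands stand in this comparison as well, so their position is a description.

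Within the scar capture, 29 scar cells were set against only 3 untraced Postn-positive cells. Ptn was 1.59 log2 units higher in scar cells, but 0.25 with each cell centred and 0.54 without cells of few genes. Mdk (-1.24) and Sdc1 (-1.46) were called lower, and turned to 2.13 and 0.05 on the log2 of the mean TPM. Sdc4, at -0.15 and not called, was 1.25 on the log2 of the mean TPM, 1.48 on medians and -1.48 with each cell centred, and Sdc2 went from -0.73 to -2.44 without cells of few genes. Of 7 genes that passed, 1 was higher beside 7.30% of 8118 genes and 2 lower beside 54.7%. The median gene stood at -1.15 log2 units, and the share of calls that were higher was 11.8%, or 0.722% with each cell centred. The median number of genes above 5 TPM was 3177 in the scar cells and 5179 in the other 3.

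**Figure D3:**
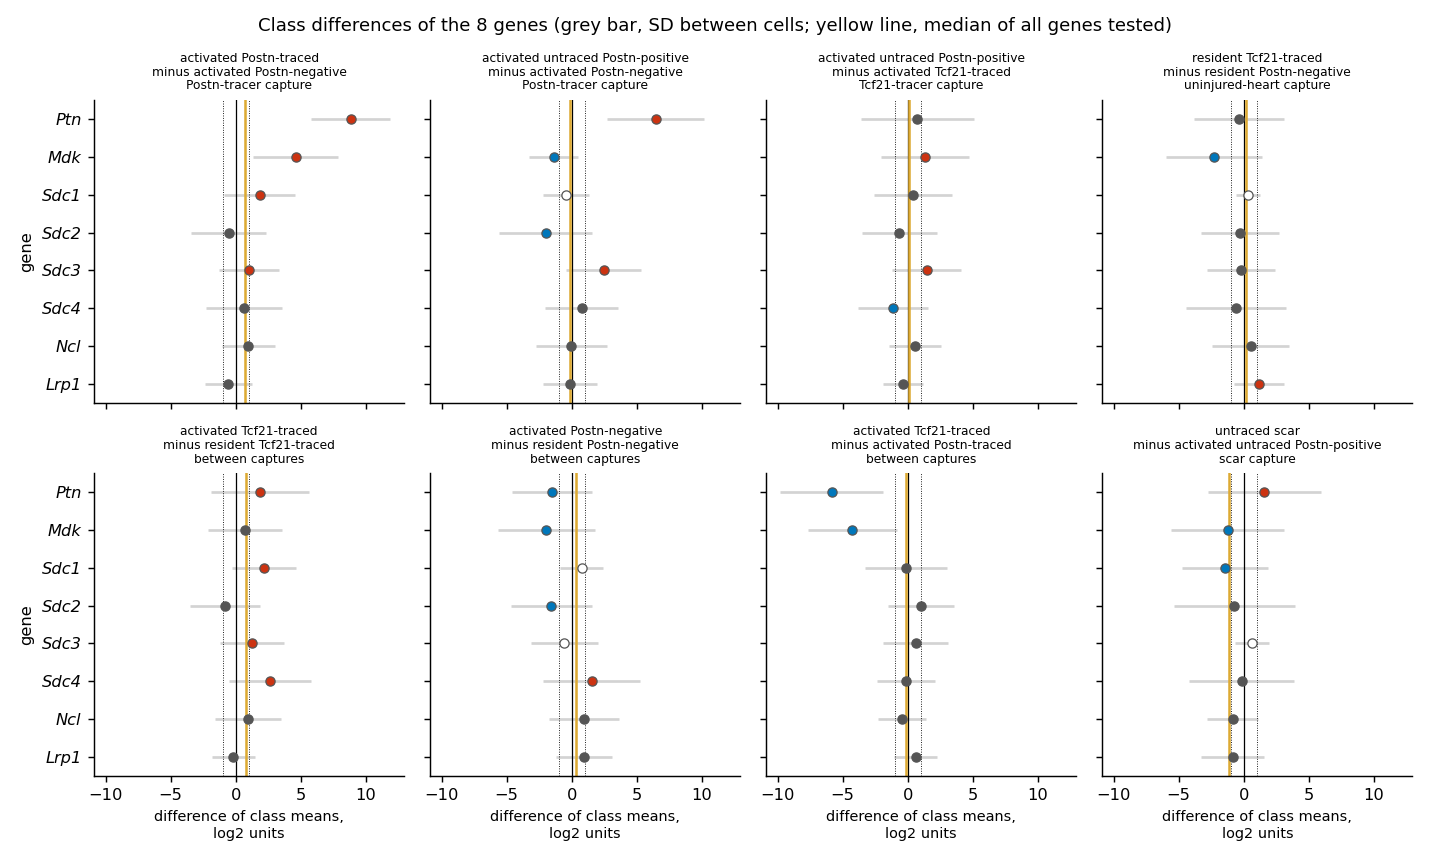
Difference of class means for the 8 genes in the 8 comparisons, in log2 units; red points were called higher, blue lower, grey were within 1 log2 unit (dotted lines) and open points did not pass the filter. Grey bars are the SD between cells and yellow lines the median of all genes tested. Ptn lies at 8.87 and 6.48 in the Postn capture and at -5.85 between the tracers.

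The syndecans share their cytoplasmic end, where adaptor proteins bind. The runs below are again the last 105 coding bases with the stop codon (GENCODE vM21, GRCm38), each within 1 exon. Capitals mark 7 codons that specify the same residues in all 4 genes and the 4 codons before the stop, which are also shared and hold the site bound by PDZ proteins such as syntenin. Over the 21 bases of the 7 codons, pairs of syndecans are identical at 17 (Sdc2 with Sdc4) to 21 (Sdc1 with Sdc3) bases, and over the 12 bases of the end at 9 to 11. They lie at chr12:8791703-8791807 on the plus strand for Sdc1, chr15:33032436-33032540 on the plus strand for Sdc2, chr4:130822705-130822809 on the plus strand for Sdc3 and chr2:164426086-164426190 on the minus strand for Sdc4.
Sdc1: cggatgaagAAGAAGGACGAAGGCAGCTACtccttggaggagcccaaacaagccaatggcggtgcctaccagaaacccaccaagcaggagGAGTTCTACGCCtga
Sdc2: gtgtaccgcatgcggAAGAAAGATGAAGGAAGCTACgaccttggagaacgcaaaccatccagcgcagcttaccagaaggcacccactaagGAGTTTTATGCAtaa
Sdc3: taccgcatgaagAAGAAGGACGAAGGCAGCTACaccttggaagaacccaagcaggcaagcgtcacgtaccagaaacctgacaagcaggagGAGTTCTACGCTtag
Sdc4: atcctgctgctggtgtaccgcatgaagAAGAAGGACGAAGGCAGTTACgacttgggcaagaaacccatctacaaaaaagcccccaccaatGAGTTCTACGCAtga

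Nearly every cell had a syndecan, and in most cells it was Sdc4 or Sdc2. At least 1 of the 4 was above 5 TPM in 179 cells, all but 6, and at least 2 were in 154. Sdc4, a focal adhesion component that works with integrins, was above 5 TPM in 161 cells and had a mean level of 8.15 ± 3.33 log2 (TPM + 1) over all of them. Sdc2, the syndecan most associated with mesenchymal cells, was above 5 TPM in 158 cells, with a mean over all cells of 6.83 ± 3.17 log2. Sdc1 and Sdc3 were above 5 TPM in 58 and 55 cells.

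Among the classes of 6 or more cells, Sdc4 had higher means in the infarct captures than in the uninjured-heart capture. In the smaller resident classes it was 11.33 log2 (TPM + 1) in the lone Postn-positive cell and 8.61 ± 1.57 in the 3 Tcf21-positive Postn-positive cells. Injury and capture cannot be told apart, and the part of depth was not tested. In the resident cells the levels ran from 0 through medians of 8.55 (Postn-negative) and 6.84 (Tcf21-traced) to 10.44 and 12.03 log2 (TPM + 1), with means of 6.78 ± 3.91 and 6.20 ± 3.77. Activated means lay between 7.70 ± 2.98 log2 in the untraced Postn-positive cells of the Tcf21 capture and 9.10 ± 1.69 in those of the Postn capture. Postn-traced cells had an Sdc4 mean of 8.96 ± 2.06 log2 (low 1.95, median 9.11, high 11.67) and Tcf21-traced cells 8.84 ± 2.39 (low 0, median 9.09, high 12.82). Postn-negative cells were close to them at 8.32 ± 3.56 log2 (low 0, median 9.74, high 11.71), so the traced classes and the class labelled Postn-negative overlapped. Scar cells had a mean of 7.88 ± 4.82 log2 with the highest median of these classes, 10.59, and 7 of 29 cells listed at 0. Of those 7 cells, 5 were among the 6 scar cells with few genes, and without these 6 the scar mean was 9.43 ± 3.50 log2, above the 9.10 of the highest other class of 6 or more cells, with 21 of 23 cells above 5 TPM (91.3%).

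Sdc2 had its highest means in resident cells. Its means there were 8.45 ± 3.09 log2 (TPM + 1) in Postn-negative (low 0, median 9.46, high 10.96) and 8.18 ± 2.89 in Tcf21-traced cells (low 0, median 9.23, high 10.92). It was 7.38 ± 2.45 log2 in activated Tcf21-traced cells, 6.90 ± 3.11 in activated Postn-negative cells and 6.38 ± 2.64 in Postn-traced cells. The lowest Sdc2 means were 5.30 ± 3.99 log2 in scar cells and 4.90 ± 3.95 in the 6 untraced Postn-positive cells of the Postn capture. The place of the scar cells rests on the 6 cells with few genes, of which 5 were listed at 0 for Sdc2, and without them the scar mean was 6.61 ± 3.39 log2, above that of Postn-traced cells. All classes overlapped, and each step in the order of Sdc2 and of Sdc4 class means was below the SD between cells.

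The balance of Sdc4 and Sdc2 was also read within single cells. Sdc4 minus Sdc2 in the same cell had a mean of -1.68 ± 4.83 log2 units in resident Postn-negative and -1.98 ± 4.99 in resident Tcf21-traced cells. It was 1.42 ± 5.17 log2 units in activated Postn-negative, 1.46 ± 3.11 in Tcf21-traced, 2.58 ± 3.06 in Postn-traced and 2.57 ± 4.27 in scar cells. Sdc4 exceeded Sdc2 in 13 of 33 resident cells (39.4%, interval 22.9 to 57.9) and in 103 of 152 infarct cells (67.8%, 59.7 to 75.1). The syndecan with the highest level was Sdc2 in 20 and Sdc4 in 13 of the 33 resident cells, and Sdc4 in 102 and Sdc2 in 40 of the 152 infarct cells. Resident and infarct cells come from separate captures, which cannot be told apart from injury. In cells where either gene is listed at 0, the value is the level of the other gene with its sign.

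**Figure D4:**
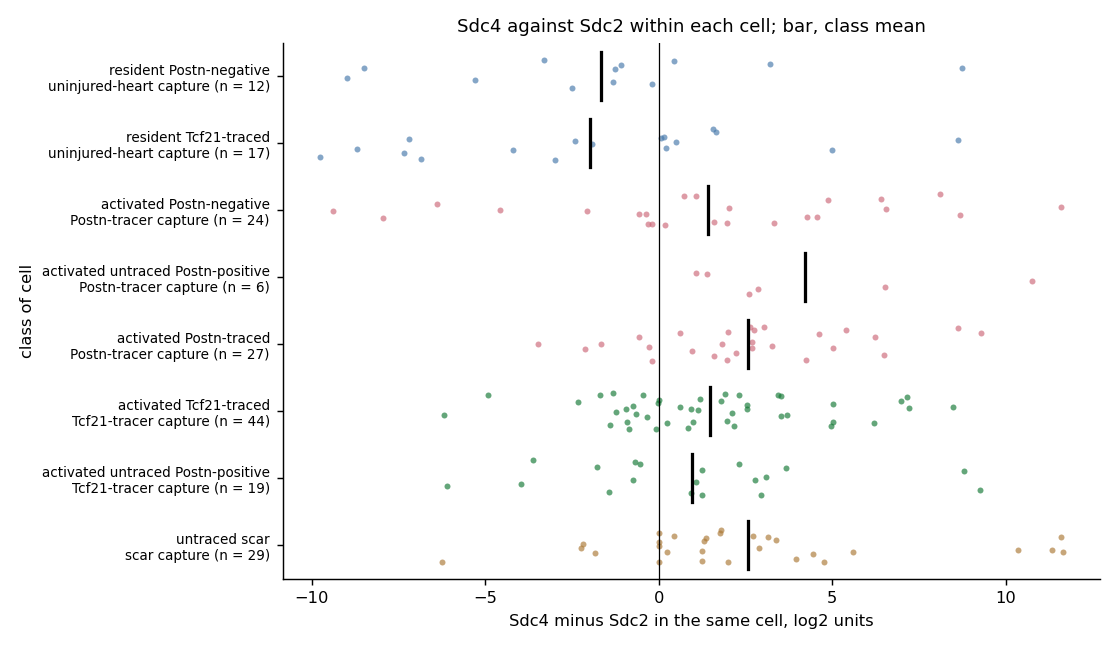
Sdc4 minus Sdc2 within each cell, in log2 units, for the 8 classes of 6 or more cells; points are cells and bars class means. Class means are -1.68 and -1.98 in resident cells and between 0.97 and 4.20 in infarct cells.

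Sdc1, the syndecan of epithelia and plasma cells that is also known in injured tissue, was above 5 TPM in 0 of 12 resident Postn-negative cells (interval up to 26.5%) and 1 of 17 resident Tcf21-traced cells, and the resident Tcf21-positive Postn-positive cells held 1 at 7.07 log2. After infarction it was above 5 TPM in 10 of 19 untraced Postn-positive cells of the Tcf21 capture, the class with the highest mean of those of 6 or more cells (2.87 ± 2.81 log2), 12 of 27 Postn-traced cells (mean 2.62 ± 3.13 log2, high 8.82), 16 of 44 Tcf21-traced cells (2.48 ± 3.22 log2, high 9.10) and 13 of 29 scar cells (2.64 ± 3.03 log2, high 8.89). Without the 6 scar cells of few genes, all listed at 0 for Sdc1, the scar mean was 3.33 ± 3.05 log2 and the highest of these classes. Activated Postn-negative cells had it in 3 of 24 (0.77 ± 2.32 log2), among them the highest Sdc1 level of all cells, 9.41 log2, and the untraced Postn-positive cells of the Postn capture in 0 of 6. These 4 classes with low Sdc1 means also had the fewest genes above 5 TPM, with medians of 2092 to 2342 against 3134 to 3643 in the other 4 classes of 6 or more cells, and the part of that depth was not tested.

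Sdc3, the syndecan first studied in nerve and known as a pleiotrophin receptor there, was highest in untraced Postn-positive cells of the Tcf21 and Postn captures. Its mean level was 3.93 ± 2.76 log2 (TPM + 1) in those of the Tcf21 capture, with 12 of 19 cells above 5 TPM, and 3.31 ± 3.44 log2 in those of the Postn capture, with 3 of 6. Tcf21-traced cells had Sdc3 above 5 TPM in 19 of 44 cells (2.46 ± 2.57 log2), Postn-traced cells in 9 of 27 (1.86 ± 2.36) and activated Postn-negative cells in 2 of 24 (0.84 ± 2.23). Scar cells had it in 4 of 29 (0.92 ± 1.78), resident Postn-negative cells in 2 of 12 (1.41 ± 2.87) and resident Tcf21-traced cells in 4 of 17 (1.17 ± 2.34). The neighbours in the order of class means were within the SD between cells for Sdc1 and Sdc3.

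All 4 syndecans were above 5 TPM together in 0 of 33 resident cells and in 24 of 152 infarct cells, of which 11 were Tcf21-traced. Infarct cells had a median of 3072 genes above 5 TPM and resident cells 2258, and the part of that depth in the count was not tested.

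Cells with a ligand almost always had a syndecan as well. A ligand and at least 1 syndecan were above 5 TPM in 26 of 27 Postn-traced cells (96.3%, interval 81 to 99.9), 26 of 44 Tcf21-traced cells (59.1%, 43.2 to 73.7) and 8 of 24 activated Postn-negative cells (33.3%, 15.6 to 55.3). In resident cells the combination was found in 17 of 33 cells (51.5%, 33.5 to 69.2). Over all cells it was found in 115, and a ligand without any syndecan in 2. The ligand set these shares, since syndecans were near universal.

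**Figure D5:**
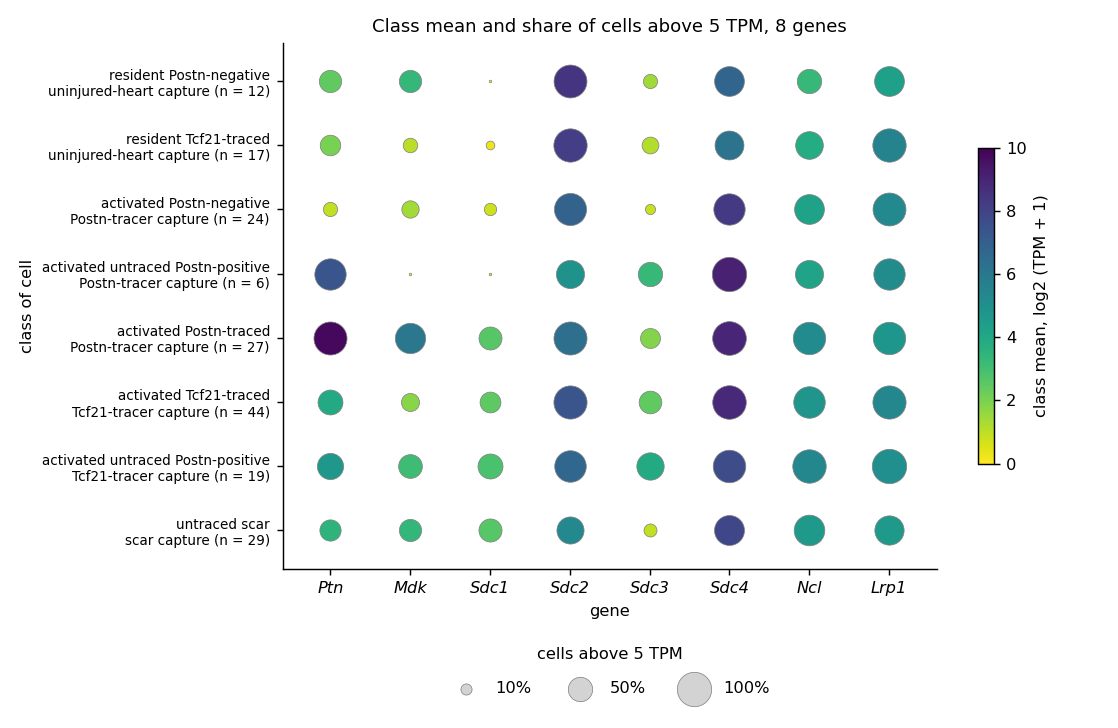
Class mean in log2 (TPM + 1) as colour and share of cells above 5 TPM as dot area for the 8 genes in the 8 classes of 6 or more cells. Sdc2, Sdc4 and Lrp1 are found in most cells of every class, and Ptn is darkest in Postn-traced cells at 9.79. Sdc1 is small in resident cells and also in the Postn-negative and untraced Postn-positive cells of the Postn capture.

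Ncl, the nucleolar protein that at the cell surface also binds midkine and pleiotrophin, was present in most cells. It was above 5 TPM in 147 of all cells, and its mean level over all cells was 4.61 ± 2.31 log2 (TPM + 1). In the classes of 6 or more cells the means ran from 3.31 ± 2.96 log2 in resident Postn-negative cells to 5.39 ± 1.95 in untraced Postn-positive cells of the Tcf21 capture (scar cells reached 5.44 ± 1.36 without the 6 cells of few genes), and Postn-traced cells stood at 5.21 ± 1.65 (low 1.81, median 5.54, high 7.41). Ncl was called in none of the 8 comparisons, but it passed 1 log2 unit on medians in Postn-traced minus Postn-negative cells (1.47) and in activated minus resident Tcf21-traced (1.39) and Postn-negative cells (1.16). On the log2 of the mean TPM these differences were 0.17, -0.25 and -0.07, and in untraced Postn-positive minus Tcf21-traced cells of the Tcf21 capture Ncl went from 0.60 to 1.48. In the scar capture it was -0.86, and -2.19 with each cell centred. With each cell centred it was 1.51 log2 units higher in Postn-traced than Postn-negative cells, 0.23 units beyond the median gene.

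Lrp1, the large endocytic receptor of the LDL receptor family that binds midkine, had the narrowest range of class means among the 8 genes. Its 8 class means lay between 4.35 ± 2.24 log2 (TPM + 1) in resident Postn-negative cells and 5.53 ± 1.49 in resident Tcf21-traced cells. Postn-traced cells had a mean of 4.75 ± 1.49 log2 (low 1.30, median 4.54, high 7.48), and 164 of all cells were above 5 TPM. The single call for Lrp1 was the 1.18 log2 units between the resident classes at the ends of that range. On medians Lrp1 also passed 1 log2 unit in activated minus resident Postn-negative cells (1.51, from 0.95) and in the Tcf21 capture (-1.02, from -0.33). It did so too in Postn-traced minus Postn-negative cells (-1.20) and in Tcf21-traced minus Postn-traced cells (1.12). In the scar capture Lrp1 was -0.86, and -2.20 with each cell centred.

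The other receptors named for these ligands ranged from below 5 TPM in every cell to broadly expressed. Ptprz1, the chondroitin sulfate receptor phosphatase of neural tissue, was above 5 TPM in 1 of all cells, and the kinase Alk in 0, which by counting error alone allows a share of up to 1.97% of cells above that threshold and sets no limit on expression. Itgb1, the common integrin beta chain, was above 5 TPM in 161 cells, Notch2 in 158, Nrp1 in 132 and Itgav in 116. Ltk, Lrp2 and Gpc2 are not in the table.

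The lists of pathway genes were counted in Postn-traced minus Postn-negative cells, beside the same 39.4% of all genes called higher and 5.55% lower, with a median of 0.75 log2 units. Of 16 other receptors and partners 5 passed, 2 were called higher and 0 lower, with a median difference of 0.93 log2 units. They were Itgb1 (1.11 log2 units) and Itgav (1.38), and Nrp1 stood at 0.93. Of 10 other heparan sulfate proteoglycans 8 passed, with 3 higher, 0 lower and a median of 0.79 log2 units. Among these, the glypicans Gpc4 (2.53 log2 units), Gpc1 (1.48) and Gpc6 (1.29) were higher, while the TGF-beta co-receptor Tgfbr3 stood at -0.94.

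The enzymes that build and edit the sulfated chains had 33 genes, of which 15 passed, 7 were higher and 1 lower, with a median of 0.91 log2 units. Chsy1, which polymerises chondroitin sulfate, was 3.05 log2 units higher and Sulf2, which removes 6-O-sulfates from heparan sulfate outside the cell, 3.06. Sulf1, with the same activity, stood at -0.24 log2 units and was expressed in both classes (5.45 ± 3.11 and 5.69 ± 3.84 log2). Of 15 adaptors and sheddases 12 passed, with 2 higher, 1 lower and a median of 0.35 log2 units. The membrane protease Mmp14, which cleaves syndecans, was 3.44 log2 units higher and the metalloprotease inhibitor Timp3 was lower at -2.78, while Mmp2 (0.22) and the syndecan adaptor syntenin (Sdcbp, 0.01) were within 1 log2 unit.

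Of 16 other heparin-binding growth factors 8 passed, 6 were higher and 0 lower, with a median of 1.77 log2 units. Tgfb3 was 4.64 log2 units higher (5.94 ± 3.62 against 1.30 ± 2.48 log2), Hdgf 2.28, Ctgf 2.01 and the chemokine Cxcl12 1.66. In activated minus resident Tcf21-traced cells, where 41.7% of all genes were higher and 6.21% lower, the same lists gave 3 higher and 1 lower of 6 receptors, 3 and 1 of 8 proteoglycans, 9 and 0 of 14 synthesis genes, 4 and 1 of 13 adaptors and sheddases, and 5 and 0 of 10 growth factors. Each list thus had more genes higher than lower in both comparisons, as all genes did. The shares were unlike: in the Postn capture 2 of 12 adaptors and sheddases were higher, and 6 of 8 growth factors. Differences between the lists were not tested.

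Correlations between cells were taken within a class, where the points share the capture, the library chemistry and the depth of each cell, and are descriptions. Ptn and Mdk had Pearson r of 0.36 over the 27 Postn-traced cells, 0.32 over the 44 Tcf21-traced cells and 0.43 over the 24 Postn-negative cells. Ptn with Sdc1 had r of 0.51 in Tcf21-traced and 0.28 in Postn-traced cells, and -0.14 in Postn-negative cells. In Postn-traced cells Ptn had r of -0.31 with Sdc2, -0.21 with Sdc4 and 0.35 with Sdc3. With the number of genes above 5 TPM, Ptn had r of -0.20, 0.43 and -0.16 in these classes in turn and Mdk 0.40, 0.33 and 0.25.

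The ligands were also set beside a list of 15 myofibroblast genes within each class. For Ptn, r was positive for 15 in Tcf21-traced cells, from 0.07 to 0.61 with a median of 0.42, a size that its r of 0.43 with the number of genes above 5 TPM reaches as well. In Postn-traced cells it was positive for 8 of 15, from -0.38 to 0.32 with a median of 0.04, and in Postn-negative cells for 4 of 15. Mdk had positive r for 12, 15 and 11 of the 15, with medians of 0.30, 0.27 and 0.17. Postn-traced cells are nearly all positive for Ptn, and Tcf21-traced cells hold cells with and without it. The difference between the classes in these correlations was not tested.

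Over all cells the genes most like Ptn among 7842 were Cthrc1 (r of 0.48), Col1a2 (0.45), Postn (0.44), Runx1 (0.43) and Col11a1 (0.43). Those most like Mdk were Cdh2 (0.47), which encodes N-cadherin, Pdlim3 (0.40), Mfap2 (0.39), Dkk3 (0.39) and Myl9 (0.37). These values pool the classes whose contrast chose the ligands, so they restate that choice in part. Ptn and Postn had r of 0.08 within Postn-traced cells, 0.00 within Postn-negative cells and 0.41 within activated Tcf21-traced cells. By capture, outside the Postn capture, it was 0.35 over 63 cells of the Tcf21 capture, 0.17 over 32 of the scar capture and -0.03 over 33 resident cells. Mdk and Cdh2 had r of 0.51, 0.48 and -0.08 in the same 3 captures.

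Within the 27 Postn-traced cells the likeness picked other genes. Those most like Ptn among 5926 were Nek7 (r of 0.65), Itm2a (0.52) and Tm2d2 (0.51), and those most like Mdk were Rock2 (0.72), Mrpl30 (0.69) and Ndufs4 (0.67). None of these 6 is among the 10 most like the ligands over all cells.

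The upstream sequence of Ptn is shown as that of the member, of the 8, whose mean varied most between the classes of 6 or more cells. The 209 bases before its annotated starts lie at chr6:36810221-36810429 on the minus strand (RefSeq, GRCm38.p6), with a GC content of 49.8% against a median of 51.7% over all promoters of that length. Capitals mark a CCAAT match, which 30% of 27025 promoters hold when both strands are searched. TATAAA (9.88% of promoters), the AP-1 motif TGANTCA (5.94%), the TEAD motif CATTCC (11%) and the SMAD motif CAGACA (14.9%) had no match in the window.
Ptn promoter: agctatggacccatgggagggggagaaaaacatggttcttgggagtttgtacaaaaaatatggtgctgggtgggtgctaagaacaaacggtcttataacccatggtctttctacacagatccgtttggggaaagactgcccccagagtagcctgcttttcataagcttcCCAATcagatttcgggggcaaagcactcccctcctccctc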

How the data were processed

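The deposited table gives log2 (TPM + 1) values, which the authors made with a pseudocount of 1; per the header of the table these are TPM, and the cells sum to 999257 to 1000000 TPM when converted back. The submitters' processing notes name Bowtie 1.0.0, eXpress 1.5.1 and mm10. TPM hold no read counts, so the depth in reads of each cell is unknown and the number of genes above 5 TPM was used. All 185 cells with a label were kept, 3 columns without a sample were left out, and 0 pairs of cell columns were identical. Class means, SDs, Clopper-Pearson intervals and correlations were computed with Python 3.11.15, NumPy 2.4.6, pandas 2.3.3 and SciPy 1.17.1, and plots with Matplotlib 3.10.9. The code was tested on simulated data. Mice are not labelled, so no test was run. Genes named are the 8 members; in each pathway list the 2 with the highest mean and the 2 with the largest called difference in Postn-traced minus Postn-negative cells; and the 5 or 3 genes most like each ligand, among genes above 5 TPM in at least 10% of all cells or 20% of the traced cells. Of the other receptors, Ptprz1, Alk and Notch2 were named after their values were seen. Members and lists were chosen with earlier results of these data known. Alternatives changed the scale of the class value, the pseudocount, the call, the filter, the detection minimum, the centring, the cells kept and the kind of correlation. Gene positions and coding sequence are from GENCODE vM21 and promoters from RefSeq, which had windows for 6 of the 8 members.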

Additional observations from a re-analysis of the deposited data

How the results depend on the processing

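Of 26 member differences called at 1 log2 unit, 11 stayed past 1 log2 unit with the same sign under each of 7 other ways of taking the values or the cells: Ptn and Mdk in Postn-traced minus Postn-negative and Tcf21-traced minus Postn-traced cells, Ptn, Sdc2 and Sdc3 in untraced Postn-positive minus Postn-negative cells, Ptn and Sdc4 in activated minus resident Tcf21-traced cells, and Sdc2 and Sdc4 in activated minus resident Postn-negative cells. The number still called was 26 with a pseudocount of 0.1, 18 with 5, 24 with each cell centred, 25 without cells under 50% of their capture's median number of genes, 19 on the log2 of the mean TPM and 16 on medians over cells. Leaving out 5 cells with markers of other cell types, an alternative chosen after seeing the data, kept 24. Those markers were endothelial, myeloid, cardiomyocyte, epicardial and Schwann genes, and cells with at least 3 pericyte or smooth muscle genes stayed in. For the 11 calls kept, leaving out cells of few genes removed no cell and could not change them. Leaving out marked cells removed none of the Tcf21-traced or Postn-traced cells. The kept ligand calls in the Postn capture and between the tracers share cells with the contrast that chose the ligands, so they remain a description.

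On medians the Mdk difference was 7.90 log2 units in Postn-traced minus Postn-negative, -7.90 in Tcf21-traced minus Postn-traced and -6.61 in scar minus untraced Postn-positive cells. On the log2 of the mean TPM, Mdk was -4.40 in untraced Postn-positive minus Postn-negative cells and Sdc3 -0.64 in Postn-traced minus Postn-negative cells, and in scar minus untraced Postn-positive cells Ptn was 6.43, Mdk 2.13 and Sdc1 0.05. Among differences not called, Sdc1 on medians was 3.81 in the Tcf21 capture, and in the scar capture Sdc4 passed 1 log2 unit in both directions (1.48 on medians, -1.48 centred). On the log2 of the mean TPM, where the genes had not passed the filter, Sdc1 was -4.48 in untraced Postn-positive minus Postn-negative cells, 1.70 in the resident comparison and 5.06 in activated minus resident Postn-negative cells, and Sdc3 was 2.59 in the scar capture (-0.72 with cells centred). The cause of these shifts was not tested. A call at 2 log2 units left 2 members higher in Postn-traced minus Postn-negative cells, 1 lower in untraced Postn-positive minus Postn-negative cells, 2 higher in activated minus resident Tcf21-traced cells, and 0 in either direction in the Tcf21 capture, activated minus resident Postn-negative cells and the scar capture, with 0 higher in the resident comparison. Centring, for counts chosen after seeing the data, gave 6 members higher in place of 4 in Postn-traced minus Postn-negative and in activated minus resident Tcf21-traced cells, 0 members lower in the Tcf21 capture, and 0 higher and 6 lower in the scar capture. All genes called higher and lower at 2 in place of 1 log2 unit numbered 664 and 102 in place of 2513 and 354 for Postn-traced minus Postn-negative cells, and the counts fell by more than 1.5 times in all 8 comparisons. Of 330 shares of cells under other minimums or without cells of few genes, 27 left their interval, and 3 of 387 correlations moved by 0.2 or more.

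Each class is 1 sample of cells whose mice are not labelled, although a legend gives 3 mice in each group, so the SD between cells is no error of a class mean. Injury and capture coincide, as do tracer and capture, and cannot be told apart. The read depth of each single cell is not given and abundant genes are listed at 0 in some cells. Classes of 1 to 6 cells give wide intervals. Transcript levels say nothing of secreted protein or of receptor binding. For the comparison with Postn-traced cells, the methods describe a small number of eGFP-negative cells with Postn transcript, a gene of the same table.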
